A study of Mus musculus with 3 samples.

Results

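The 10 genes described here encode transcription factors of the T lymphocyte lineage: Tcf7, Lef1, Gata3, Tcf12, Bcl11b, Runx1, Runx3, Tox, Satb1 and Zbtb7b. They were chosen by name, from 21728 protein-coding genes on the autosomes and the X chromosome, with earlier results of these data known. Counts of the 10 set beside shares of all genes are therefore descriptions. Each gene was read as the ATAC fragments that overlap its body and the 2 kb before it, and as the fragments within 1 kb of its annotated start sites (GENCODE gene models, mm10). The data are the chromatin accessibility libraries of a nuclear multiome study of wild-type (WT) mouse hearts that had been snap frozen. There were 3 libraries, 1 per treatment: vehicle, sunitinib (a tyrosine kinase inhibitor used against cancers), and sunitinib with Yoda1, a chemical activator of the mechanosensitive ion channel PIEZO1. All mice were WT; the labels name the Yoda1 library by that agent alone, and its sunitinib comes from the design text of the series. Doses, the number of animals per library and the meaning of the 3 months in the sample names were not given in the sources used here. With 1 library per treatment no difference between treatments has a replicate check, so no test is given, and every interval is an exact 95% interval for counting error only.

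T cells arise in the thymus from blood-borne progenitors that receive Notch signals. TCF1, the product of Tcf7, and GATA3 are induced early, BCL11B then closes off other fates, and RUNX and E proteins act at many of the same enhancers. Later, TOX, ThPOK (from Zbtb7b) and RUNX3 take part in the choice between the CD4 and the CD8 lineage. ATAC-seq counts transposase insertions, so it reports how open a gene's chromatin is and not how much RNA is made.

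Several of the genes have separate promoters that were read separately, and sequences at some of these are printed below. Promoter fragments were counted within 1 kb of the annotated coding starts, a wider stretch than the printed runs. The first 3 pairs are the upstream and downstream promoters of Runx1, Runx3 and Tcf12, and the last is the promoter of Bcl11b. Each run is the 250 bases before a RefSeq transcription start (GRCm38.p6, the same assembly as mm10), written 5′ to 3′ in the direction of the gene. Capitals mark matches to any of 5 short motifs searched on both strands. The TCF/LEF motif was searched as CTTTGA and the RUNX motif as TGTGGT. The motif of GATA factors was searched as AGATAA and that of ETS factors as AGGAAG. The E-box, where E proteins bind, was searched as CAGCTG. No match printed here overlaps another.
Runx1 distal promoter, chr16:92826075-92826324, minus strand: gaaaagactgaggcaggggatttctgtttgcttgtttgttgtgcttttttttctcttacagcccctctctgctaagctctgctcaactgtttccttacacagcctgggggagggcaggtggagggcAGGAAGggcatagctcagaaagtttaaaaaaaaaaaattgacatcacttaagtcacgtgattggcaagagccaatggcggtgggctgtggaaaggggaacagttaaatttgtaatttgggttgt
Runx1 proximal promoter, chr16:92697330-92697579, minus strand: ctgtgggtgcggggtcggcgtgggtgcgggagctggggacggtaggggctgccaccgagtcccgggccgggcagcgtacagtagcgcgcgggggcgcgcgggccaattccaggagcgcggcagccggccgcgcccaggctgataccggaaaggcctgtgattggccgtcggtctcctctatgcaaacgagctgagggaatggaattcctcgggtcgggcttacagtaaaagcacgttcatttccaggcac
Runx3 distal promoter, chr4:135120395-135120644, plus strand: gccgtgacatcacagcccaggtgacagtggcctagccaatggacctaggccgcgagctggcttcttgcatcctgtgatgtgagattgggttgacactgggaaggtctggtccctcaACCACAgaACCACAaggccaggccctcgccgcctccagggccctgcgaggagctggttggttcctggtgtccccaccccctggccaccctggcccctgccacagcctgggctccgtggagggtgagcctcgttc
Runx3 proximal promoter, chr4:135152295-135152544, plus strand: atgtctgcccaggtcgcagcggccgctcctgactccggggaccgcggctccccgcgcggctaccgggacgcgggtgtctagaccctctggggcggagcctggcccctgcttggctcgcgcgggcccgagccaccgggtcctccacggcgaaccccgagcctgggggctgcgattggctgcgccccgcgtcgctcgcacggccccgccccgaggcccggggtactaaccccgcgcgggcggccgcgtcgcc
Tcf12 first promoter, chr9:72111820-72112069, minus strand: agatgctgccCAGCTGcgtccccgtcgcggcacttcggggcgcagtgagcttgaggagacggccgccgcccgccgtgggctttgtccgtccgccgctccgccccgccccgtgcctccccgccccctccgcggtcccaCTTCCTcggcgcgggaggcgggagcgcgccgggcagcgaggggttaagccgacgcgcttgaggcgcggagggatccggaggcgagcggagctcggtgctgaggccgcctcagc
Tcf12 internal promoter, chr9:71896097-71896346, minus strand: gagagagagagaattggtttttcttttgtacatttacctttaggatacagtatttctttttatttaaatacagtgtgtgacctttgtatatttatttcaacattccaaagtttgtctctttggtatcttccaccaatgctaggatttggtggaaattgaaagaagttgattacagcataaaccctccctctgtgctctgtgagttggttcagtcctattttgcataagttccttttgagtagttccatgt
Bcl11b promoter, chr12:108003415-108003664, minus strand: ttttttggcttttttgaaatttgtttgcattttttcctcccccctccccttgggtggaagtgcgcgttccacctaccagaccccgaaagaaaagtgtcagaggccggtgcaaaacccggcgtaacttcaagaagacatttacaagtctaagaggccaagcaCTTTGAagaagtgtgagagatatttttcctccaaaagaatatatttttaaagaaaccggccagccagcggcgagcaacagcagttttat

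The Runx1 distal run holds 1 ETS match and the Runx3 distal run holds 2 RUNX matches. The first Tcf12 promoter holds 1 E-box and 1 ETS match, and the Bcl11b promoter holds 1 TCF/LEF match. None of the 5 motifs occurs in the other 3 runs. The same 250 bases before the start were searched in 32851 RefSeq promoters. Of these, 13.8% hold the TCF/LEF letters, 14.0% the RUNX letters, 9.99% the GATA letters, 29.5% the ETS letters and 13% the E-box. GC content was 45.6% in the distal and 67.6% in the proximal Runx1 run, 65.2% and 78.8% in the Runx3 pair, and 76.8% and 34.8% in the Tcf12 pair. RefSeq promoters were matched for 9 of the 10 genes, and Tox was not among them.

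The vehicle library held 18704581 unique fragments and the sunitinib library 23653823. From these, 2694 and 3860 barcodes passed as nuclei, with medians of 2161.5 and 2371 fragments. The sunitinib plus Yoda1 library stood apart: it held 583792 fragments from 209296546 read pairs, of which only the 258020 fragments seen at least 100 times were used, and 12 barcodes passed. It therefore enters only as a whole library. The vehicle and sunitinib libraries shared 22 nucleus barcodes, and neither shared any with the third. Nuclei were grouped from 5-kb genome tiles without any tile within 100 kb of the 10 genes, and no doublet caller was run. The T-like class, in which 15 of 15 T cell markers (Cd3e, Lck, Cd4 and others, none of them among the 10 genes) were over 2-fold above the remaining nuclei, held 246 vehicle nuclei (9.13%, exact binomial interval 8.07 to 10.3%) and 1387 sunitinib nuclei (35.9%, 34.4 to 37.5%). Their median depths were 1613 and 2056 fragments. A smaller cluster of 103 and 135 nuclei had 7 of 9 B, 6 of 8 natural killer and 8 of 15 T cell markers over 2-fold. It is called mixed lymphocyte, a name given after its markers were seen. The other named classes were, in vehicle and sunitinib nuclei, vascular endothelial-like (1054 and 1068), fibroblast-like (352 and 279), cardiomyocyte-like (228 and 296), myeloid-like (171 and 138), endocardial-like (151 and 62), mural-like (113 and 117) and epicardial or mesothelial-like (43 and 18); 2 clusters stayed unnamed. The labels name heart alone, and its markers were there: the 10 cardiomyocyte markers summed to 849 and 817 counts per 1000000 fragments in the whole vehicle and sunitinib libraries, none at 0, and cardiomyocyte-like nuclei were 8.46% and 7.67% of nuclei. Markers of thymic epithelium had 1881 and 2387 fragments, none at 0. These are not scaled to library size, and no cluster was named for these markers.

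T-like nuclei carried more fragments over 9 of the 10 genes than the other nuclei did, and Zbtb7b was the exception. With both libraries summed, 8 of 10 genes were more than 1.5-fold higher, against 16.2% of the 14644 genes measured in that comparison (at least 200 fragments in all and 30 expected on each side). The median log2 ratio of the 10 was 1.74, beside 0.11 over all measured genes, 18.5% of which were lower by 1.5-fold. Summed over the 10 genes, the ratio was 1.54 (1.5 to 1.58), and it was 1.54 in the vehicle and 1.48 in the sunitinib library taken alone. These are descriptions of clusters, not tests, and most T-like nuclei came from the sunitinib library. Within 1 kb of start sites, 8 genes were again past 1.5-fold (17.1% of genes), and Zbtb7b was past it in the other direction (11.1% of genes). The share of all fragments that lay at start sites was 29.7% in T-like and 26.5% in other nuclei, and dividing by it lowers every gene's ratio by 0.16, which changed no direction among the 10.

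Tcf7 (chr11:52252371-52283014, minus strand) and Lef1 (chr3:131110471-131224356, plus strand) encode the HMG-box factors TCF1 and LEF1, which bind the TCF/LEF motif. Levels are counts per 1000000 fragments of the class or library (CPM). Tcf7 stood at 165 CPM in vehicle T-like nuclei and 209 in sunitinib T-like nuclei, beside 39.4 and 52.0 in the other nuclei of each library. All 4 values for Lef1 followed the same order, at 177 and 208 CPM in T-like nuclei and 35.2 and 50.9 in the others. The summed log2 ratios were 2.13 (1.99 to 2.27) for Tcf7 and 2.21 (2.07 to 2.36) for Lef1. Tcf7 separated T-like from every other class, since the mixed lymphocyte cluster had 97.7 CPM and the remaining named classes 34.0 (cardiomyocyte-like) to 50.2 (fibroblast-like). Lef1 did not separate the lymphoid clusters, at 204 CPM in T-like nuclei (190 to 218) and 220 in mixed lymphocyte nuclei (185 to 259), and its other named classes ranged from 18.1 in myeloid-like to 51.5 in epicardial or mesothelial-like nuclei. For both genes the 500-bp window with the most T-like transposition ends lay inside the gene and away from its start. In Tcf7 it was chr11:52275371-52275870, 6950 bp past the nearest start, with 16.3 CPM of ends in T-like nuclei and 0.821 in the others, a log2 ratio of 4.29 (3.72 to 4.96). The Tcf7 start-site region itself differed by less, with 26.8 CPM in T-like nuclei and 13.6 outside the T-like and mixed lymphocyte nuclei (0.98 on the log2 scale). In Lef1 the window was chr3:131208471-131208970, 95924 bp past the start, with 9.14 against 0.733 CPM of ends (3.62).

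Gata3 (chr2:9857078-9890034, minus strand) encodes the zinc-finger factor that T cell progenitors need from the earliest stage, and it is also known from endothelium. It had 103 and 119 CPM in vehicle and sunitinib T-like nuclei, and 57.9 and 56.3 in the other nuclei, for a summed log2 ratio of 1.04 (0.88 to 1.20). Endocardial-like nuclei had 71.0 CPM and vascular endothelial-like nuclei 68.7. The counted window also covers 2 other coding genes, 4930412O13Rik and 9230102O04Rik, whose fragments cannot be separated from those of Gata3. Its upstream start (chromosome 2, 9890034) had 16.8 CPM in T-like nuclei and 3.72 outside the lymphoid clusters (log2 ratio 2.18, 1.66 to 2.70). At the downstream start (9878600) the values were 31.2 and 14.7 (1.09, 0.77 to 1.40). The upstream start took 35.0% (28.4 to 42.1%) of the Gata3 promoter fragments of T-like nuclei and 16.9% (11.3 to 23.8%) of those of vascular endothelial-like nuclei. The Gata3 window with the most T-like ends, chr2:9879578-9880077, was as open elsewhere, with 9.99 CPM of ends in T-like and 9.91 in other nuclei.

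Tcf12 (chr9:71842688-72111871, minus strand) encodes HEB, an E protein that pairs with other basic helix-loop-helix factors in thymocytes and is made in many tissues. Its body was open in all classes: 291 (275 to 308) CPM in pooled T-like nuclei, 241 in vascular endothelial-like nuclei and 104 in cardiomyocyte-like nuclei, the lowest named class. The log2 ratio of T-like over other nuclei was 0.48 (0.38 to 0.57), under 1.5-fold. Its promoters did not move together. The first promoter (starts 72109724 to 72111871) was higher in T-like nuclei, 51.7 against 27.6 CPM outside the lymphoid clusters (0.91, 0.66 to 1.14). The internal promoter (starts 71896089 to 71896396) was lower there, 4.14 against 15.5 (-1.87, -2.71 to -1.20). Vascular endothelial-like nuclei had 22.8 CPM at the internal promoter, myeloid-like nuclei 19.2, and cardiomyocyte-like nuclei no fragment, which allows up to 1.96. The internal promoter took 42.1% of Tcf12 promoter fragments in vehicle and 37.5% in sunitinib vascular endothelial-like nuclei. In T-like nuclei it took 6.90% and 7.21%, from only 2 vehicle and 15 sunitinib fragments. Its share was thus lower in T-like nuclei in both libraries. The sequences printed for this pair differ in GC content by more than those of the other pairs.

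Bcl11b (chr12:107910403-108003602, minus strand) encodes the zinc-finger factor that fixes commitment to the T lineage. It had 296 CPM in vehicle and 314 in sunitinib T-like nuclei, and 47.9 and 58.2 in the other nuclei. Its summed log2 ratio, 2.54 (2.42 to 2.67), was the highest of the 10 and close to that of Satb1. The mixed lymphocyte cluster had 234 CPM, cardiomyocyte-like nuclei 88.8 (74.5 to 105), vascular endothelial-like nuclei 28.9 and myeloid-like nuclei 21.3. The promoter printed above, with its TCF/LEF match, lies in a region of sharp contrast: the stretch within 1 kb of its starts had 35.6 CPM in T-like nuclei and 3.23 outside the lymphoid clusters (3.45, 3.00 to 3.94). The top window, chr12:108003903-108004402, begins just upstream of it and had 15.6 against 2.08 CPM of ends.

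Runx1 (chr16:92601466-92826149, minus strand) and Runx3 (chr4:135120652-135177990, plus strand) encode Runt-domain factors, RUNX1 at work throughout blood formation and RUNX3 in CD8 T cells and other lymphocytes. Runx1 was high in all blood classes: 426 and 437 CPM in vehicle and sunitinib T-like nuclei, 398 in mixed lymphocyte nuclei and 338 (302 to 377) in myeloid-like nuclei. Vascular endothelial-like nuclei were the lowest named class at 63.0. Runx3 was not highest in T-like nuclei, which had 72.7 and 95.2 CPM, since myeloid-like nuclei had 115 (94.5 to 139) and mixed lymphocyte nuclei 105, intervals that overlap the pooled T-like 92.1 (83.1 to 102). Against all other nuclei the summed log2 ratios were 1.82 (1.72 to 1.91) for Runx1 and 0.94 (0.76 to 1.12) for Runx3.

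The distal promoters printed above had larger T-like log2 ratios than the gene bodies, 3.12 for Runx1 and 3.61 for Runx3. The promoter ratios leave out mixed lymphocyte nuclei, which the body ratios include. From myeloid-like nuclei the Runx1 distal promoter did not set T-like nuclei apart. The Runx1 distal promoter had 31.9 CPM in vehicle and 31.4 in sunitinib T-like nuclei, and 3.60 outside the lymphoid clusters with both libraries pooled (log2 ratio 3.12, 2.67 to 3.60). Myeloid-like nuclei had 37.3, level with T-like nuclei (0.26, -0.34 to 0.80), and vascular endothelial-like nuclei 1.71. No fragment was seen there in endocardial-like, mural-like or cardiomyocyte-like nuclei, so the pooled T-like level of 31.4 was at least 10.5-fold, 7.46-fold and 16.0-fold higher than the limit of 3 counts in each. The Runx1 proximal promoter was open more widely, at 26.3 CPM in T-like, 39.5 in myeloid-like and 16.5 in all nuclei outside the lymphoid clusters. At Runx3 the pooled distal promoter separated T-like from myeloid-like nuclei, which the body did not: 12.9 CPM against 1.07, the latter from 1 fragment. This rests on the sunitinib library, with 51 T-like fragments and 1 myeloid-like fragment (14.4 and 2.26 CPM), since the vehicle library had 2 and none (3.55 CPM against a limit of 6.06). The distal start took 44.5% of Runx3 promoter fragments in T-like nuclei and 1 of 25 (0.101 to 20.4%) in myeloid-like nuclei. At the Runx3 proximal promoter, T-like nuclei had 16.1 CPM and myeloid-like nuclei 25.6.

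**Figure D1:**
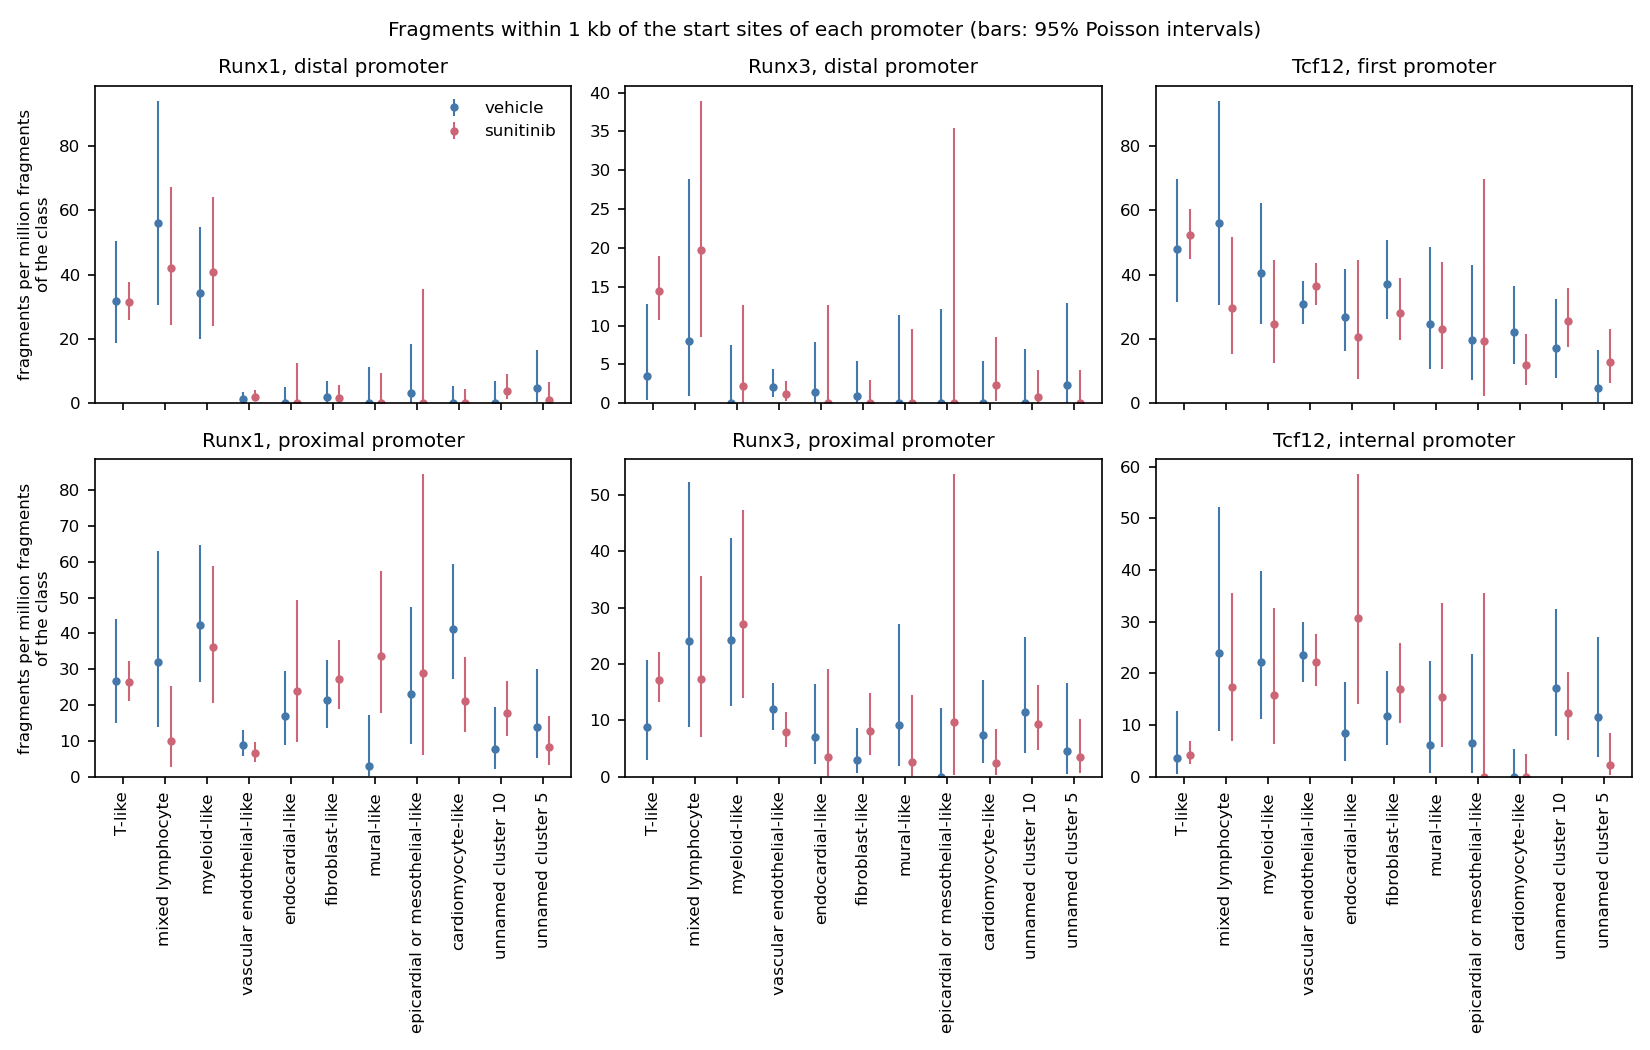
CPM within 1 kb of the start sites of each promoter (vertical axis) in each cell class (horizontal axis), for the paired promoters of Runx1, Runx3 and Tcf12; blue is the vehicle library, red the sunitinib library, and bars are 95% Poisson intervals. The Runx1 distal promoter is open in T-like, mixed lymphocyte and myeloid-like nuclei, the Runx3 distal promoter in the lymphoid clusters, and the internal Tcf12 promoter is lower in T-like (4.14 CPM, pooled) than in vascular endothelial-like nuclei (22.8).

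Tox (chr4:6686353-6991557, minus strand) encodes an HMG-box factor needed for CD4 T cell development. It had 243 and 256 CPM in vehicle and sunitinib T-like nuclei and 73.8 and 85.1 in the others (summed log2 ratio 1.67, 1.55 to 1.78). Outside the lymphoid clusters its levels spread widely, from 29.5 CPM in mural-like to 121 (107 to 136) in fibroblast-like nuclei. The region around the start at 6990799 had 42.4 CPM in T-like nuclei and 5.06 outside the lymphoid clusters (3.06, 2.68 to 3.46). The top window, chr4:6990353-6990852, had 13.3 against 1.35 CPM of ends.

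Satb1 (chr17:51736187-51833290, minus strand) encodes a chromatin organizer that thymocytes carry in large amounts. It had 319 and 332 CPM in T-like nuclei and 44.9 and 68.9 in the others (summed log2 ratio 2.51, 2.39 to 2.63). Vascular endothelial-like nuclei were lowest at 22.7 CPM and fibroblast-like nuclei reached 81.5. All 4 of its promoters were higher in T-like nuclei. The first and the fourth had most fragments, 55.1 and 40.9 CPM, at log2 ratios of 2.46 and 1.90 over nuclei outside the lymphoid clusters. The second had 12.2 CPM and the highest ratio, 3.61, and the third 3.17 CPM (2.67).

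Zbtb7b (chr3:89377644-89394776, minus strand) encodes ThPOK, which directs CD4 lineage cells, and it went against the label of the set. It had 56.8 and 52.0 CPM in vehicle and sunitinib T-like nuclei and 68.9 and 70.9 in the others. The pooled T-like level, 52.6 (45.9 to 60.2), was the lowest of the named classes, although mural-like nuclei at 59.0 were within its interval, and myeloid-like nuclei had 108 (87.7 to 131). The log2 ratio was -0.41 (-0.63 to -0.20) with the libraries summed, and -0.26 (-0.84 to 0.24) in the vehicle library alone. At its starts T-like nuclei had 18.3 CPM and nuclei outside the lymphoid clusters 37.2 (-1.02, -1.39 to -0.68). The window most open in other nuclei, chr3:89393644-89394143, had 2.80 CPM of ends in T-like and 12.7 in other nuclei (-2.15, -2.85 to -1.57). The window most open in T-like nuclei was elsewhere, at chr3:89396144-89396643, 2716 bp before the nearest start, with 7.19 against 4.51.

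**Figure D2:**
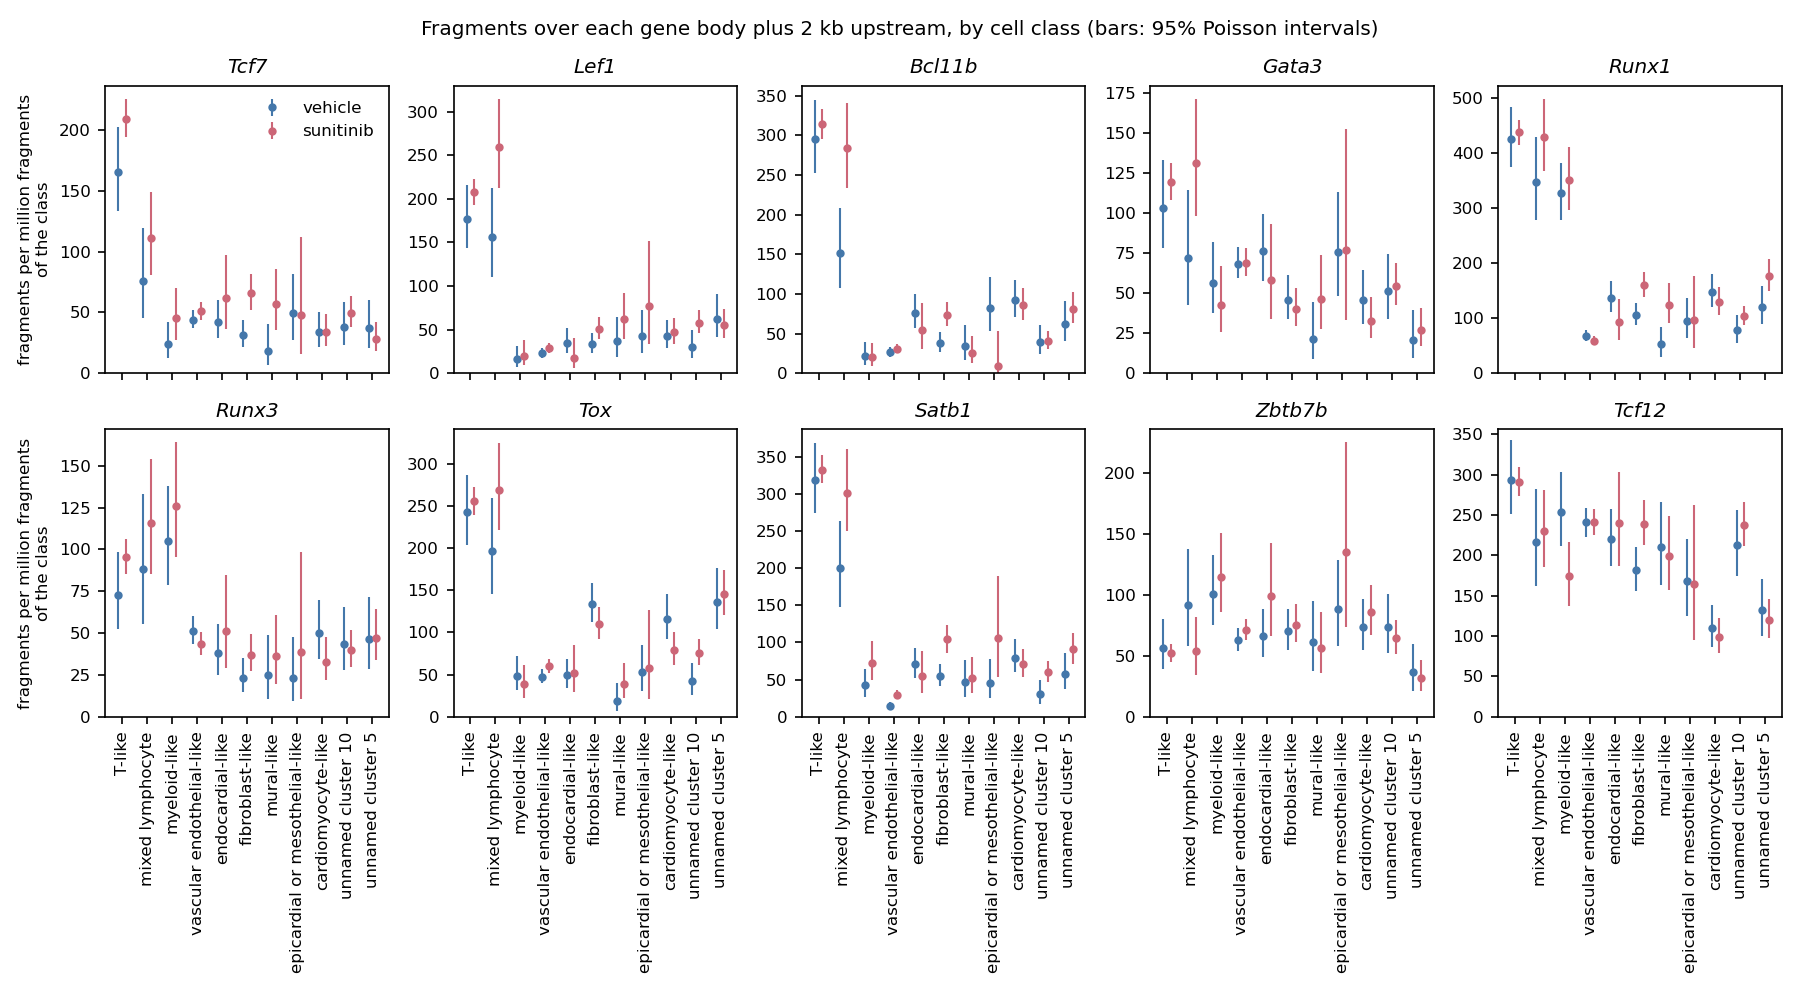
CPM in each gene's counted window, body and 2 kb before it (vertical axis, 1 panel per gene), in each cell class (horizontal axis); blue is vehicle, red sunitinib, bars are 95% Poisson intervals. Tcf7, Bcl11b and Satb1 are highest in T-like nuclei in both libraries, Runx1 and Runx3 are high in myeloid-like nuclei as well, and Zbtb7b is not raised in T-like nuclei.

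**Figure D3:**
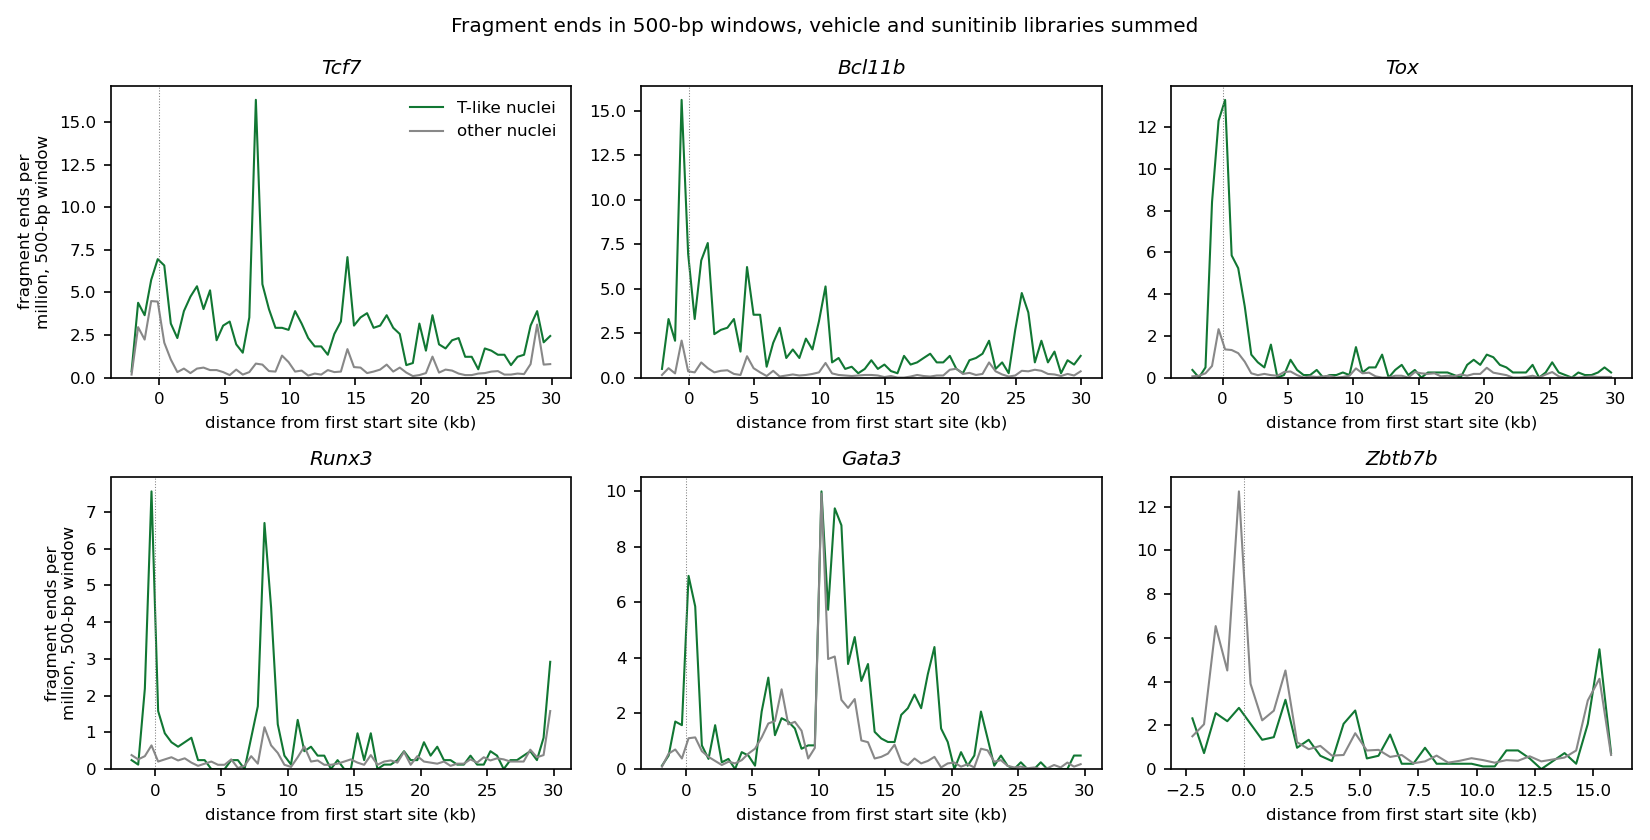
Transposition ends as CPM in 500-bp windows (vertical axis) against the distance in kb from the first start site (horizontal axis), in T-like nuclei (green) and all other nuclei (grey), vehicle and sunitinib summed. The Tcf7 peak inside the gene reaches 16.3 against 0.821 in other nuclei, Bcl11b, Tox and Runx3 peak at their first start, the Gata3 peak of 9.99 is matched by 9.91 in other nuclei, and at the start of Zbtb7b the grey line is the higher.

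Levels of different genes can be compared per kb of the counted window, the body and the 2 kb before it. In T-like nuclei Tcf7 had the highest density, 6.22 CPM per kb. Gata3, Satb1 and Bcl11b followed at 3.35, 3.33 and 3.27, and Zbtb7b had 2.75. Tox, the longest gene with a body of 305 kb, had the lowest density, 0.827. Gene bodies also overlap antisense and other noncoding genes at 9 of the 10 loci, and ATAC fragments carry no strand.

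Sunitinib was compared with vehicle first over whole libraries, that is over all barcodes. Satb1, Tcf7, Lef1 and Bcl11b were more than 1.5-fold higher in the sunitinib library, 4 of 10 genes, against 2.07% of 16726 measured genes, and none was lower by that fold (0.622% of genes). Satb1 went from 56.2 to 116 CPM (log2 ratio 1.05, 0.95 to 1.16) and Tcf7 from 47.0 to 90.9 (0.95, 0.84 to 1.07). Lef1 went from 55.3 to 91.9 (0.73, 0.63 to 0.84) and Bcl11b from 84.2 to 134 (0.67, 0.58 to 0.76). These are also the 4 genes with the highest ratios of T-like over other nuclei. Gata3 (49.6 and 69.9 CPM, ratio 0.50), Tox (89.1 and 123, 0.47), Runx1 (157 and 215, 0.45) and Tcf12 (146 and 179, 0.29) were higher by less than 1.5-fold. Runx3 had 60.5 and 66.7 CPM (0.14, 0.03 to 0.25), and Zbtb7b 72.9 and 68.5 (-0.09, -0.20 to 0.01). The median of the 10 was 0.48, beside 0.10 over all measured genes. The 15 T cell markers moved with them, from 378 to 684 CPM summed, none at 0 in either library, and immature thymocyte markers went from 167 to 346. In a whole library, more T-like nuclei and more open chromatin per nucleus cannot be told apart.

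Fragments at start sites made up 19.6% of the vehicle and 22.9% of the sunitinib library. Dividing by them lowers every ratio by 0.22, turns Runx3 to -0.08 and takes Zbtb7b to -0.31, while the other 8 genes keep their direction. Lef1 (0.51) and Bcl11b (0.45) are then under 1.5-fold, and Satb1 (0.83) and Tcf7 (0.73) stay past it. Counted within 1 kb of start sites, 6 of 10 genes were past 1.5-fold (5.41% of 12410 genes, median 0.26), led by Tox (1.27, 0.96 to 1.60), Lef1 (1.08) and Bcl11b (1.03). The Runx1 distal promoter took 27.5% (22.9 to 32.5%) of that gene's promoter fragments in the whole vehicle library and 38.5% (34.7 to 42.5%) in the sunitinib library. Within T-like nuclei its share was 54.5% (36.4 to 71.9%) and 54.4% (47.3 to 61.4%), so the promoter shift of the whole libraries was not seen inside the class.

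Within T-like nuclei the libraries were close over gene bodies. In that window none of the 10 genes was past 1.5-fold between sunitinib and vehicle (1.53% of 4522 genes were higher and 0.840% lower). The median log2 ratio was 0.08, beside 0.01 over all measured genes, and the summed ratio was 0.10 (0.02 to 0.19). Tcf7 alone had an interval above 0: 165 and 209 CPM, 0.34 (0.03 to 0.67). The 15 T cell markers were at 1520 and 1654 CPM (0.12, 0.02 to 0.23). Of the marker lists of other cells, cardiomyocyte markers at 326 and 409 (0.32, 0.10 to 0.55) and myeloid markers at 273 and 330 (0.27, 0.03 to 0.53) differed as well. The other such lists had intervals that included 0, such as vascular endothelial (0.01), lymphatic endothelial (0.25), endocardial (-0.20) and adipocyte markers (-0.32). Median depth also differed, as given above. The part of these differences in the ratios was not tested. Bcl11b (0.08), Tox (0.07), Satb1 (0.05), Runx1 (0.03) and Tcf12 (-0.02) had ratios near 0 with intervals on both sides of it. Runx3 (72.7 and 95.2 CPM, 0.37, -0.08 to 0.89), Lef1 (177 and 208, 0.22, -0.08 to 0.54) and Gata3 (103 and 119, 0.20, -0.19 to 0.63) were further from 0, and their intervals also included it. Zbtb7b had 56.8 and 52.0 CPM (-0.15, -0.67 to 0.46) and was the 1 gene with too few fragments to count as measured. Within 1 kb of start sites, 1 of the 10 genes was higher past 1.5-fold and none lower (1.99% and 0.828% of 604 genes). It was Runx3, which had too few fragments there to count as measured. At the Runx3 distal promoter 2 fragments were seen in vehicle T-like nuclei and 51 in sunitinib T-like nuclei, or 3.55 (0.430 to 12.8) and 14.4 (10.7 to 18.9) CPM. Its proximal promoter had 5 and 61 fragments, or 8.87 and 17.2 CPM.

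Outside T-like and mixed lymphocyte nuclei, no gene was past 1.5-fold over its body either (0.101% of genes were higher and 0.108% lower). Satb1 had 39.6 and 58.4 CPM (0.56, 0.35 to 0.77), Lef1 31.1 and 41.5 (0.41, 0.17 to 0.66) and Tcf7 38.2 and 49.3 (0.37, 0.15 to 0.59), and the other 7 intervals included 0. T cell markers were also higher in these nuclei, 277 and 356 CPM (0.36, 0.28 to 0.44), as were immature thymocyte markers, 110 and 144 (0.39, 0.27 to 0.52), while thymic epithelial markers were at 84.0 and 88.5 (0.08, -0.08 to 0.23). Their part in the 3 ratios was not tested. Within 1 kb of start sites, 2 of the 10 genes were higher past 1.5-fold and none lower (0.110% and 0.0804% of 9956 genes). Lef1 had 4.99 CPM in vehicle and 8.35 in sunitinib nuclei, from 37 and 75 fragments. Tox had 3.91 and 6.01, from 29 and 54 fragments. Both had too few fragments there to count as measured.

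**Figure D4:**
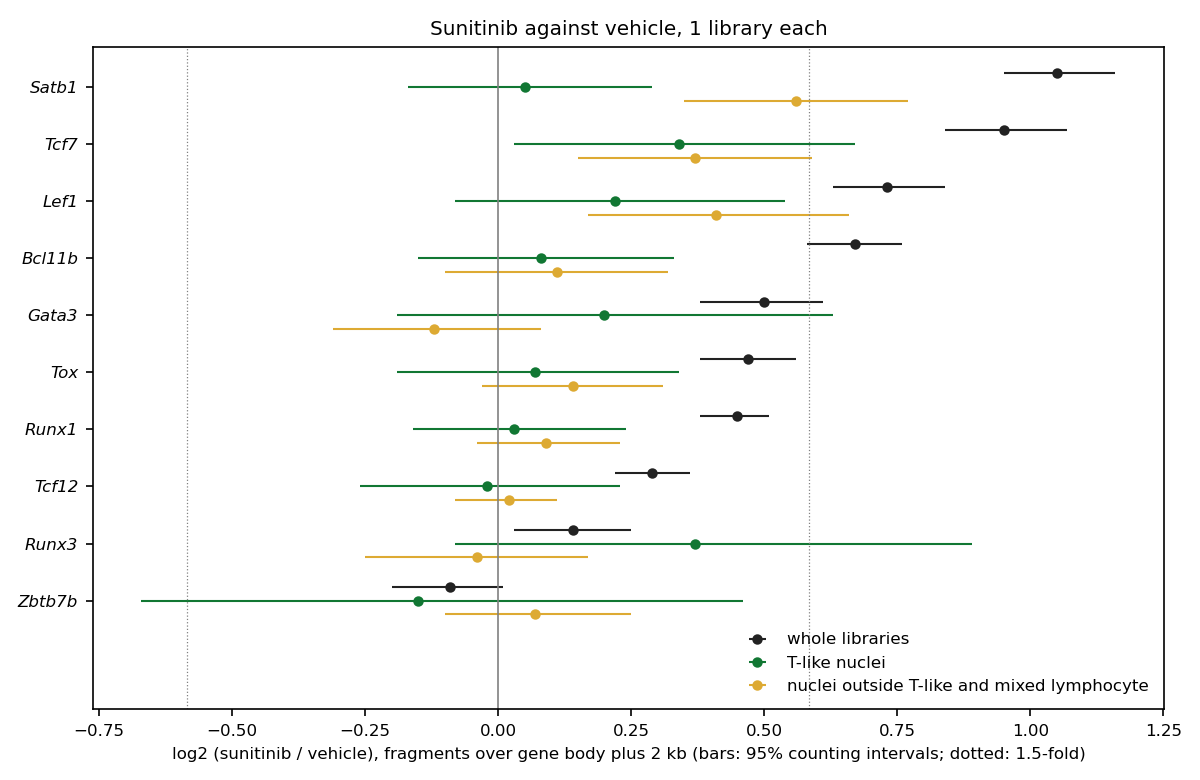
Log2 ratio of sunitinib over vehicle (horizontal axis) for each gene (vertical axis) in whole libraries (black), T-like nuclei (green) and nuclei outside T-like and mixed lymphocyte (yellow); bars are 95% counting intervals and dotted lines mark 1.5-fold. Ratios are for the body and the 2 kb before it. Satb1, Tcf7, Lef1 and Bcl11b lie beyond 1.5-fold in whole libraries and not in the other 2 sets. The summed ratio is 0.50 in whole libraries and 0.10 in T-like nuclei.

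In fibroblast-like nuclei 5 genes had intervals above 0: Tcf7, Bcl11b, Satb1, Runx1 and Tcf12. The share of all genes with such an interval was not counted, and of the 3 measured genes 2 were above 0. Tcf7 had 31.2 CPM in vehicle and 65.8 in sunitinib fibroblast-like nuclei (1.06, 0.47 to 1.71), Bcl11b 38.1 and 73.8 (0.94), Satb1 54.7 and 104 (0.91), Runx1 106 and 160 (0.58, 0.24 to 0.94) and Tcf12 182 and 239 (0.40, 0.13 to 0.67). The count past 1.5-fold was also 5 of 10, beside 0.427% of genes. These are not the 5 just named, since Runx1 and Tcf12 were under 1.5-fold. None of the genes past 1.5-fold had the 200 fragments that the background genes had to have, and only 3 of the 10 genes did. Tox went the other way, at 134 and 110 CPM (-0.28), with an interval that included 0. T cell markers in these nuclei were at 237 and 398 CPM (0.74, 0.52 to 0.97) and immature thymocyte markers at 99.6 and 211 (1.08, 0.75 to 1.43), and their part was not tested. In vascular endothelial-like nuclei Satb1 had 14.7 and 29.2 CPM (0.98, 0.46 to 1.54) and Tox 47.6 and 60.2 (0.34, 0.02 to 0.66), where T cell markers were at 298 and 354, and the summed ratio of the 10 genes was 0.08 (-0.01 to 0.17). In cardiomyocyte-like nuclei the summed ratio was -0.19 (-0.36 to -0.02), and Tox had 116 and 78.8 CPM (-0.56, -1.05 to -0.07). In mural-like nuclei the summed ratio was 0.41 (0.13 to 0.70) with none of the 10 genes measured, and Runx1 had 52.4 and 124 CPM (1.22) from 17 and 48 fragments.

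The T-like and mixed lymphocyte nuclei were clustered again among themselves into 5 sub-clusters. Sub-cluster 1 had Rag1, Rag2 and Ptcra, genes of antigen receptor rearrangement in thymocytes, among its leading genes and is called immature thymocyte-like; it held 163 vehicle and 958 sunitinib nuclei, or 66.3% and 69.1% of the T-like class. Sub-cluster 3 (59 and 184 nuclei) had 4 of 8 natural killer and 3 of 10 mature T cell markers over 2-fold and is not named, and sub-cluster 4 was B-like, with 8 of 9 B cell markers (61 and 50 nuclei). Sub-cluster 2 was not named either, and sub-cluster 5 also carried endothelial genes.

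Lef1, Gata3 and Tox were higher in sub-cluster 3 than in immature thymocyte-like sub-cluster 1, and Tcf7 was lower. Lef1 had 210 CPM in sub-cluster 1 and 324 in sub-cluster 3 (0.63, 0.38 to 0.87), the only 1 of 10 past 1.5-fold (3.88% of genes were higher by that much and 8.51% lower). Gata3 had 113 and 160 (0.51, 0.15 to 0.86), and Tox had 269 and 376 (0.49, 0.25 to 0.71). Tcf7 had 236 and 169 (-0.47, -0.81 to -0.17). In the sunitinib library alone the 4 ratios were 0.69, 0.52, 0.49 and -0.57. In the smaller vehicle library Tcf7 did not show it (0.04, -0.70 to 0.72), and the intervals of the other 3 genes included 0. Bcl11b (347 and 336 CPM), Runx1 (456 and 414) and Satb1 (374 and 416) had intervals on both sides of 0. Promoter use of Tcf12 differed as well: the internal promoter took 4.83% (1.96 to 9.69%) of its promoter fragments in sub-cluster 1 and 37.5% (18.8 to 59.4%) in sub-cluster 3.

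The unnamed sub-cluster 2 had less of 3 genes. Its log2 ratios over sub-cluster 1 were -0.53 (-0.80 to -0.28) for Tcf7, -0.48 (-0.68 to -0.28) for Satb1 and -0.26 (-0.49 to -0.04) for Tox, with both libraries summed. None of the 10 genes was past 1.5-fold there, beside 1.17% of genes higher and 3.47% lower.

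Against B-like sub-cluster 4, sub-cluster 3 was higher at 6 genes past 1.5-fold (19.8% of 197 genes). Only 6 of the 10 genes were themselves measured, since Gata3, Tcf7, Runx3 and Zbtb7b had too few fragments. Bcl11b had 57.3 CPM in B-like and 336 in sub-cluster 3 nuclei (2.52, 1.84 to 3.36), Lef1 64.0 and 324 (2.31), Gata3 33.7 and 160 (2.19) and Tcf7 43.8 and 169 (1.90). Tox had 108 and 376 (1.78) and Satb1 185 and 416 (1.16). The RUNX genes and Tcf12 did not separate sub-clusters 3 and 4 at this depth: Runx1 had 347 and 414 (0.25), Runx3 97.7 and 112 (0.19) and Tcf12 205 and 262 (0.34), with intervals that included 0. Zbtb7b was lower past 1.5-fold in sub-cluster 3, 87.6 CPM in B-like and 55.2 in sub-cluster 3 nuclei, 1 gene of 10 beside 8.63% of genes, with an interval that included 0 (-0.67, -1.46 to 0.14). Within sub-cluster 1, Gata3 had 71.8 CPM in vehicle and 118 in sunitinib nuclei (0.69, 0.06 to 1.46), the only 1 of 10 past 1.5-fold between treatments there (3.20% of genes).

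**Figure D5:**
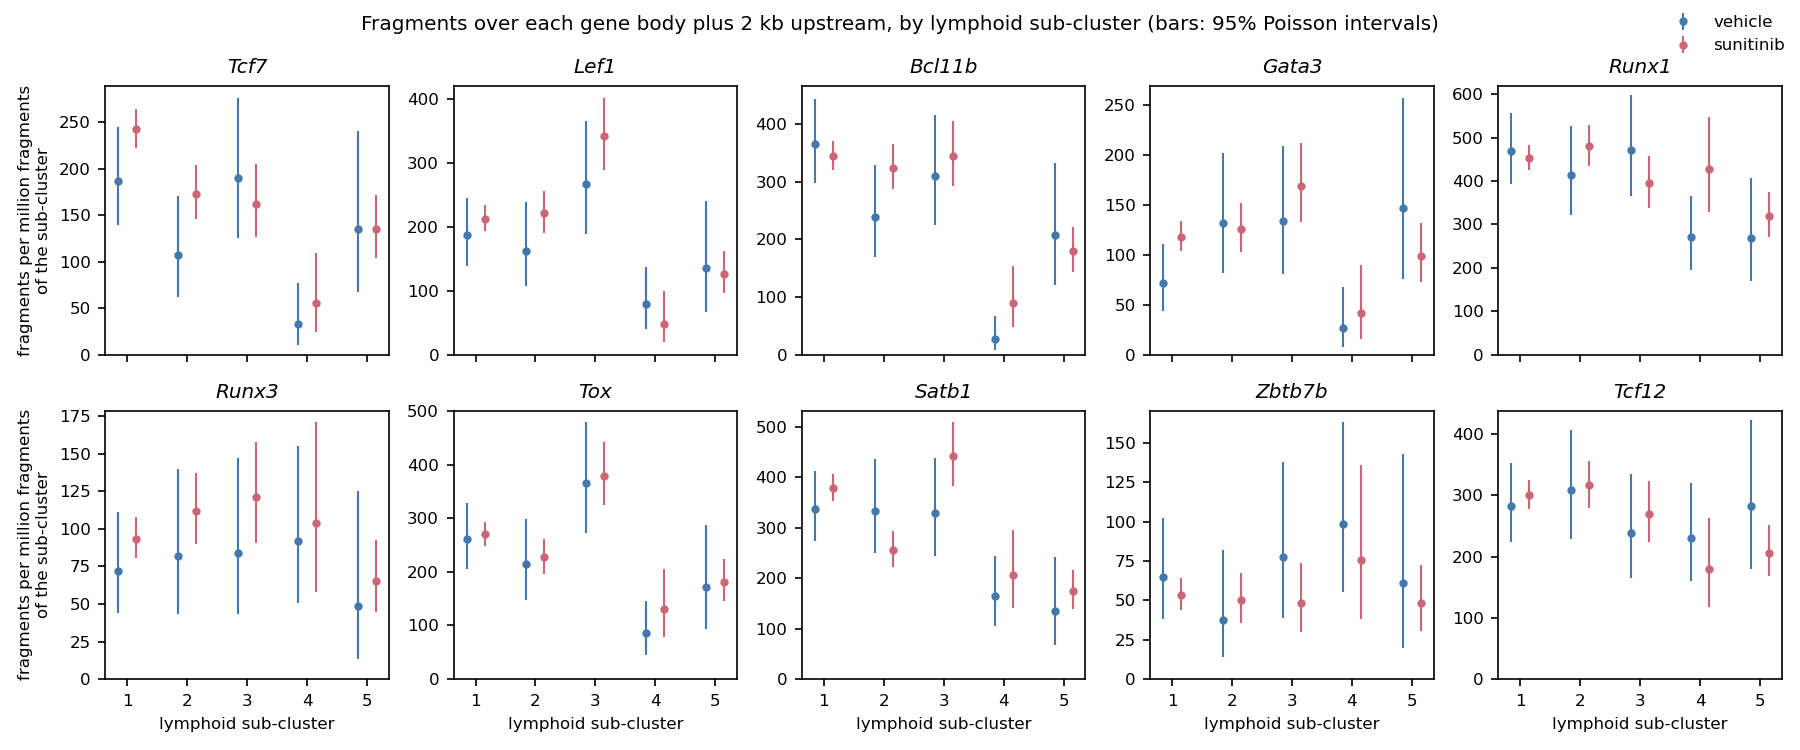
CPM in each gene's counted window (vertical axis, 1 panel per gene), in lymphoid sub-clusters 1 to 5 (horizontal axis); blue is vehicle, red sunitinib, bars are 95% Poisson intervals. Bcl11b is low in B-like sub-cluster 4 (57.3 CPM, pooled) and Lef1 is highest in sub-cluster 3 (324), while Runx1 and Runx3 differ little between sub-clusters 3 and 4.

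The sunitinib plus Yoda1 library gave 142 fragments over all 10 genes. Relative to the sunitinib library, 8 of 10 genes were lower by more than 1.5-fold, beside 9% of the 844 genes measured, and only Bcl11b, Runx1, Tox and Tcf12 were themselves measured. The summed log2 ratio was -1.07 (-1.32 to -0.83). Runx1 had 81.4 CPM from 21 fragments (-1.37, -2.09 to -0.79), Tox 46.5 from 12 (-1.35, -2.36 to -0.60) and Bcl11b 73.6 from 19 (-0.83, -1.60 to -0.22). Of the genes not measured, Satb1 had 31.0 CPM from 8 fragments (-1.82, -3.12 to -0.93), Lef1 54.3 from 14 (-0.71, -1.63 to -0.01) and Runx3 19.4 from 5 (-1.65, -3.41 to -0.56). Tcf7 had 15.5 CPM from 4 fragments (-2.38, -4.43 to -1.19), and Gata3 3.88 from 1 fragment (-3.59, -9.48 to -1.69). Tcf12 at 151 CPM (-0.23, -0.74 to 0.21) and Zbtb7b at 73.6 (0.14, -0.63 to 0.75) were near the sunitinib values of 179 and 68.5. The sunitinib library is also the numerator of the previous comparison, so the values belong side by side. Against vehicle, the summed ratio was -0.57 (-0.82 to -0.33), with 6 of 10 genes lower past 1.5-fold (5.33% of genes) but only Runx1 and Tcf12 measured, Lef1 at 0.02 and Bcl11b at -0.16. T cell markers stood at 306 CPM in this library (242 to 382), with Cd3e and Cd3g at 0, immature thymocyte markers at 69.8 with Ptcra, Dntt and Cd1d1 at 0, and cardiomyocyte markers at 1628, beside 817 in the sunitinib library. No fragment lay at the start sites of Tcf7 or Runx3, which allows up to 11.6 CPM. Treatment and the shallow depth of this library cannot be told apart.

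Other genes of the T lineage programme were read from lists. Over all measured genes, 16.2% were higher and 18.5% lower by 1.5-fold in T-like than in other nuclei, the shares to set beside the counts that follow. Of 19 other lymphoid transcription factors, all measured, 8 were higher and 2 lower by 1.5-fold in T-like than in other nuclei, with a median of -0.05 beside the 1.74 of the 10 genes. Gfi1, a zinc-finger repressor, was among the higher ones at 2.75. Klf2 (-0.93) and Zbtb16 (-1.99), factors of recirculating and innate-like lymphocytes, were lowest. Of 10 progenitor factors that are silenced on commitment, none was higher and 5 were lower past 1.5-fold; Gfi1b (0.56) and Lyl1 (0.24) were highest, Hhex (-2.05) and Mef2c (-2.17) lowest, and the median was -0.48. Among the 5 measured of 6 Notch pathway and initiation genes, Dtx1 (1.38) and Notch3 (0.67) were higher past 1.5-fold and Hes1 (-1.05) was lower, with Nrarp at -0.32. Of 21 measured paralogs and partners of the 10 genes, 2 were higher, Runx2 (0.94) and Tox2 (0.71), and 8 lower, with Gata2 (-2.32) and Runx1t1 (-2.49) lowest. Tox4 (0.45) and Tox3 (0.32) were also above 0, and Gata4 (-1.81) and Gata6 (-2.21) were among the lower genes. Of 8 effector and subset factors, 1 was higher, Foxp3.

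Between whole sunitinib and vehicle libraries, 6 of the 19 other lymphoid factors were higher past 1.5-fold and none lower, beside 2.07% and 0.622% of all measured genes, led by Gfi1 (1.02, 0.84 to 1.19) and Ikzf1 (0.97, 0.86 to 1.08), with Klf2 (-0.16) and Zbtb16 (-0.29) lowest. None of the 6 Notch and initiation genes (median 0.15), the 10 progenitor factors (-0.04), the 8 effector factors (0.14) or the 21 measured paralogs and partners (-0.01) was past 1.5-fold in either direction. Within T-like nuclei none of the 16 measured lymphoid factors was past it; Ikzf1 had a ratio of 0.32 (0.05 to 0.61), and Notch1 one of -0.33 (-0.63 to -0.02).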

How the data were processed

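Nuclei from WT mouse hearts were assayed by ATAC in 3 libraries, 1 per treatment, and the RNA arm was left out of the analysis. The authors deposited fragment lists whose last column is a raw count, the read pairs that support a fragment. Per the file headers they were made with cellranger-arc 2.0.0 (vehicle, sunitinib) and 2.0.2 (sunitinib plus Yoda1) on an mm10 reference, and the submitters' processing notes name Cell Ranger, Signac and mm10. Headers differ in version between libraries, so version and treatment cannot be told apart for the third.

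Fragments overlapping each gene body plus 2 kb upstream, or lying within 1 kb of its coding start sites, were counted once per barcode and scaled to 1000000 fragments on the autosomes and X (CPM). Barcodes with at least 1000 fragments, a start-site enrichment of at least 4 and a mononucleosomal over nucleosome-free ratio under 4 were nuclei. Latent semantic indexing of 60000 5-kb tiles (30 components, 20 neighbours, Leiden resolution 0.8) gave clusters, named from marker lists that hold none of the 10 genes; doublets were not called, and the deepest 5% of nuclei were left out as an alternative. In the sunitinib plus Yoda1 library, fragments with under 100 read pairs were dropped, a limit taken from earlier results of these data. Log2 ratios have 0.5 added to each count and a conditional exact 95% interval; levels have exact Poisson and shares Clopper-Pearson intervals. Genes with 200 fragments or more in all, and 30 or more expected in each group, were taken as measured, and those past 1.5-fold as called. The alternatives changed the window, depth minimum, resolution, tiles, fragment length, duplicates, denominator, unit, barcodes and read-pair minimum. The ratio code was tested on simulated data.

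All 10 genes are named in each main comparison, as are the 2 highest and 2 lowest genes of lists, promoters over 5 kb apart, the 500-bp window with most ends, and the 3 genes most like each member by Pearson's r. Some genes that these rules pick are not reported here. Members and lists were chosen with earlier results of these data known. Python 3.11.15, numpy 2.4.6, pandas 2.3.3, scipy 1.17.1, scikit-learn 1.9.0, igraph 0.11.9, leidenalg 0.10.2 and matplotlib 3.10.9 were used.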

Additional observations from a re-analysis of the deposited data

Results flagged for a closer look

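Tcf12, the gene of the E protein HEB, was the measured gene whose sunitinib over vehicle ratio lay on opposite sides of 0 in 2 cell classes with counting intervals that left out 0. In fibroblast-like nuclei the log2 ratio was 0.40 (0.13 to 0.67), from 298 fragments in the sunitinib and 186 in the vehicle library. In myeloid-like nuclei it was -0.55 (-0.98 to -0.13), from 77 and 126 fragments, or 174 and 254 counts per 1000000 fragments. With 1 library per treatment the difference between the classes was not tested.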

How the results depend on the processing

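No paired analysis was possible because each treatment has 1 library and the labels give no shared replicate numbers; for the same reason no library could be left out. The direction of the ratio summed over the 10 genes was the same under all 12, 12, 8 and 8 alternatives of the 4 comparisons. T-like over other nuclei (1.54) became 1.28 within 1 kb of start sites, 1.42 with at least 3000 fragments per nucleus, 1.60 without the deepest 5% of nuclei and 1.37 relative to fragments at all start sites. After seeing the data, 2 alternatives were added: without sub-cluster 5 it was 1.60, and with sub-cluster 1 only 1.63. Sunitinib over vehicle in T-like nuclei (0.10) was 0.20 from fragments shorter than a nucleosome. Sunitinib over vehicle in whole libraries (0.50) was 0.40 from fragments shorter than a nucleosome, 0.28 relative to start-site fragments, 0.56 in called nuclei, 0.17 in called nuclei without T-like and 0.42 in barcodes under 500 fragments. Sunitinib plus Yoda1 over sunitinib (-1.07) was -0.78 from fragments shorter than a nucleosome, -0.93 with all fragments of that library, and -1.06 and -1.04 with minimums of 50 and 200 read pairs. The causes were not tested, except that the T-like class is absent by construction where it was left out. For single genes, 33 of 120 values of the first comparison, 8 of 120 of the second, 45 of 80 of the third and 2 of 80 of the fourth moved beyond their counting interval. Depth limits the vehicle T-like class (563773 fragments, so 3 counts are 5.32 CPM) and above all the sunitinib plus Yoda1 library, where 3 counts are 11.6 CPM.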

Other observations

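For each of the 10 genes, genes with the most similar levels over the cell classes were found. Candidates were other protein-coding genes with at least 200 fragments in T-like nuclei and not within 100 kb of the gene. The search was therefore limited to genes with signal in T-like nuclei. The epicardial or mesothelial-like class, with few nuclei, was left out. The measure was Pearson's r of log2 levels over 20 points, the classes of the vehicle and sunitinib libraries, which share their libraries and depths, so r is a description. For Satb1 the nearest genes included Rnf43 (0.929) and Slamf1, a lymphocyte surface receptor (0.927). For Lef1 they included Cldn10 (0.919) and Camk4 (0.898), and for Bcl11b they were Cldn10 (0.95), Spo11 (0.919) and Jakmip1 (0.918). For Runx1 they were Ptk2b (0.959), BC049352 (0.953) and Ptprc, the leukocyte common antigen CD45 (0.945). For Runx3 they were Fam49b (0.930), Inpp5d (0.910) and Pik3cg (0.907), the last a phosphoinositide kinase of leukocytes. For Tcf7 they were Tbcel (0.909), Serbp1 and Klhl42 (both 0.905), for Gata3 Emc10 (0.907), Fam71e1 (0.900) and Nat10 (0.899), and for Tox Sema4f (0.894), Jakmip1 (0.888) and Lypd6b (0.877). Zbtb7b went with Osbpl9 (0.907), Mon2 (0.873) and Nfic (0.867), and Tcf12 with Spata6 (0.925), Il4ra (0.881) and Man2c1 (0.876).

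Among the 10 genes themselves, Bcl11b and Satb1 (0.888), Bcl11b and Lef1 (0.867) and Lef1 and Satb1 (0.856) were most alike over the same 20 points. Runx1 and Runx3 had an r of 0.807, and Lef1 and Tcf7, the HMG-box pair, one of 0.732.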
